A study of Mus musculus with 9 samples.

Results

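The receptors for interleukin-3 (IL-3), interleukin-5 (IL-5) and GM-CSF were followed in a mouse megakaryocytic cell line after knockdown of CBFb or Ring1b. Their chains are encoded by 5 genes, Csf2rb, Csf2rb2, Csf2ra, Il3ra and Il5ra, which 7 probe sets of the array measured out of 45037, and out of 18193 genes in all. Every probe set annotated to 1 of these genes alone was taken. The family was chosen on the CBFb_KD and Control values of Csf2rb, among the genes that rose most, so its values in that comparison are a description and carry no test.

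All 9 arrays measured L8057, an established mouse line labelled as megakaryocytic, with 3 arrays in each of 3 groups. CBFb_KD cells carried a short hairpin RNA (shRNA) against CBFb, Ring1b_KD cells one against Ring1b, and Control cells the empty vector. Cells of every group were infected with lentivirus, put under puromycin 48 h later, and harvested after a further 72 h. All of them, Control included, also received the phorbol ester TPA, which drives L8057 cells to mature, at 50 nM for 3 days. The groups are thus pools of selected cells of 1 line, Control lacks a hairpin, and the labels do not say how many hairpins were used per target. The series design calls the arrays biological triplicates.

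These cytokine receptors are built from a ligand-specific alpha chain, which binds the cytokine, and a beta chain, which carries the signal. Csf2rb encodes the common beta chain shared by the receptors of all 3 cytokines. Csf2rb2 encodes a closely related beta chain of mice that works with the IL-3 alpha chain. Csf2ra, Il3ra and Il5ra encode the alpha chains for GM-CSF, IL-3 and IL-5. The beta chain carries the kinase JAK2, which activates STAT5 and the Ras and phosphoinositide 3-kinase branches, and the cytokines act on myeloid progenitors, mast cells, basophils, eosinophils and megakaryocyte precursors. CBFb is the partner subunit of the RUNX transcription factors, which bind DNA, and Ring1b (gene symbol Rnf2) is a ubiquitin ligase of Polycomb repressive complex 1.

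The targeted genes followed the labels. The log2 signal of Cbfb averaged 9.19 ± 0.11 in CBFb_KD and 12.36 ± 0.12 in Control (SD, n = 3 each, limma adjusted p = 3.28e-10). That of Rnf2 averaged 8.98 ± 0.08 in Ring1b_KD and 10.65 ± 0.08 in Control (SD, n = 3 each, limma adjusted p = 3.31e-07). Of 16 megakaryocyte markers measured, the platelet chemokine gene Pf4 had signals of 14.67 to 14.77 in CBFb_KD, 13.76 to 14.67 in Ring1b_KD and 14.28 to 14.57 in Control. Of the 16, 10 had a mean at or above the median signal of all genes in at least 1 group, and the others lay below it. The median signal of the arrays ran from 6.514 to 6.652. With 3 arrays a group, precision is set by how few arrays there are.

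Csf2rb was 8.85-fold and 10.2-fold higher in CBFb_KD than in Control by its 2 probe sets, and Csf2rb2 was 6.75-fold higher. The fold of Csf2rb2 stands on Control signals of 4.82 to 5.54, which cannot be told from background without a detection call, so it is limited by the floor. The 4 alpha chain probe sets differed from Control by -0.03 to 0.14 on the log2 scale. Of these, the probe sets of Csf2ra and Il5ra lay below the median signal of all probe sets in every group, so a difference could be hidden near the floor, and only that of Il3ra lay above it. In Ring1b_KD, Csf2rb rose about 2-fold, by 2.15-fold and 2.22-fold, with a call that held in 1 probe set and was marginal in the other, and Csf2rb2 was not called.

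**Figure D1:**
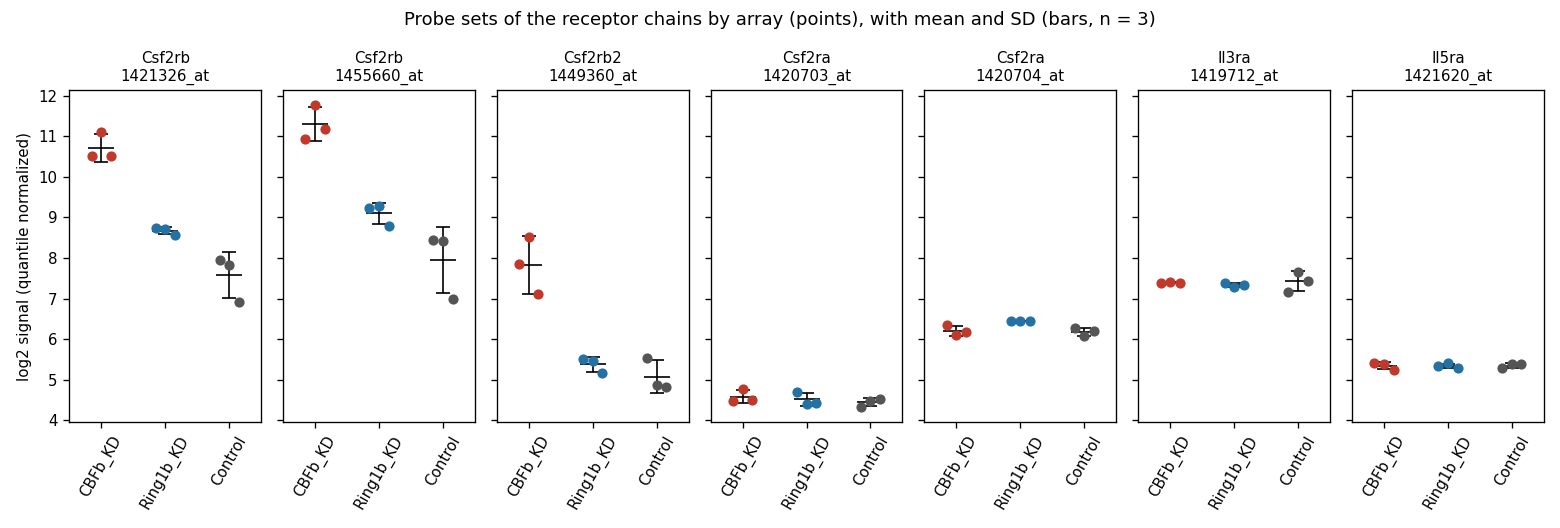
Log2 signal (quantile normalized) of the 7 probe sets of the receptor chains, one panel each, with a point per array and bars for the mean and SD (n = 3). The CBFb_KD points lie above all others in the panels of Csf2rb and Csf2rb2, and the groups overlap or lie close together in the 4 alpha chain panels.

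Csf2rb, probe set 1421326_at, had log2 signals of 10.52, 11.12 and 10.51 in CBFb_KD, 8.73, 8.72 and 8.58 in Ring1b_KD, and 7.96, 7.83 and 6.92 in Control. The 3 groups did not overlap, CBFb_KD lay highest and Control lowest, and Control array 3 lay well under the other Control arrays. The means were 10.72 ± 0.35 in CBFb_KD, 8.67 ± 0.09 in Ring1b_KD and 7.57 ± 0.57 in Control (SD, n = 3 each). CBFb_KD minus Control was thus 3.15 on the log2 scale, and 2.82 without Control array 3. CBFb_KD minus Ring1b_KD was 2.04, which is 4.12-fold.

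The other Csf2rb probe set, 1455660_at, had log2 signals of 10.94, 11.76 and 11.18 in CBFb_KD, 9.23, 9.28 and 8.79 in Ring1b_KD, and 8.44, 8.41 and 6.9998 in Control. The order of the groups was the same, again without overlap, and Control array 3 was again the lowest. The means were 11.30 ± 0.42 in CBFb_KD, 9.10 ± 0.27 in Ring1b_KD and 7.95 ± 0.82 in Control (SD, n = 3 each). CBFb_KD minus Control was 3.35 on the log2 scale, and 2.87 without Control array 3. CBFb_KD minus Ring1b_KD was 2.20.

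Csf2rb2, the IL-3-specific beta chain, had log2 signals of 7.86, 8.53 and 7.10 in CBFb_KD, 5.51, 5.46 and 5.17 in Ring1b_KD, and 5.54, 4.87 and 4.82 in Control (probe set 1449360_at). Every CBFb_KD array lay above every array of the other groups, while Ring1b_KD and Control overlapped. The means were 7.83 ± 0.71 in CBFb_KD, 5.38 ± 0.18 in Ring1b_KD and 5.07 ± 0.40 in Control (SD, n = 3 each). CBFb_KD minus Control was 2.76 on the log2 scale, and CBFb_KD minus Ring1b_KD was 2.45.

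Csf2rb and Csf2rb2 are near-identical copies that lie next to each other on chromosome 15, so signal of one could be read by probes of the other, and their separate values are uncertain. A further probe set is annotated to both genes and stood outside the rule. It had log2 signals of 9.29, 9.82 and 9.36 in CBFb_KD, 8.43, 8.44 and 8.47 in Ring1b_KD, and 8.11, 8.05 and 7.80 in Control. The order of the groups was that of the Csf2rb probe sets, with differences from Control of 1.51 in CBFb_KD and 0.47 in Ring1b_KD. Of the 7 member probe sets, 3 were at least 1 (log2) higher in CBFb_KD than in Control, against 0.728% of all probe sets, a count that the choice of the family set.

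Ring1b_KD against Control was not the contrast that chose the family, although it shares the Control arrays with it. Of the 7 probe sets, 2 were called higher and 0 lower in this comparison (limma, Benjamini-Hochberg adjusted p under 0.05 over all probe sets), against 8.48% of all probe sets called and 3.77% called higher. Both called probe sets were those of Csf2rb. For 1421326_at the difference was 1.10 ± 0.23 (log2, SE; 95% interval 0.60 to 1.61; limma adjusted p = 0.0126), higher in 3 of 3 Ring1b_KD arrays than in any Control array, as 14.1% of all probe sets were. For 1455660_at it was 1.15 ± 0.33 (log2, SE; 95% interval 0.44 to 1.86; limma adjusted p = 0.0493), with the same lack of overlap. Without Control array 3 these differences were 0.78 (limma adjusted p = 0.0258) and 0.67 (limma adjusted p = 0.112), so the call of 1455660_at was lost without that array. Csf2rb2 differed by 0.31 (log2, 95% interval -0.31 to 0.92, limma adjusted p = 0.573) and was not called.

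Whether the beta chains parted in Ring1b_KD was taken within each array, a quantity chosen after the values had been seen. The mean of the Csf2rb probe sets minus Csf2rb2 was 3.47, 3.54 and 3.51 in Ring1b_KD, against 2.67, 3.25 and 2.14 in Control (log2). Every Ring1b_KD array lay above every Control array, and the change differed by 0.82. It is given without a test, since it was picked for this pattern and the Csf2rb2 signals of both groups lie near the floor. In CBFb_KD the same quantity was 2.87, 2.91 and 3.74, which overlapped both other groups.

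For the alpha chain genes no difference was called in Ring1b_KD. Il3ra, whose product binds IL-3, had log2 signals of 7.39, 7.41 and 7.39 in CBFb_KD, 7.38, 7.27 and 7.35 in Ring1b_KD, and 7.17, 7.66 and 7.44 in Control. The Control arrays spanned the other groups completely, and Ring1b_KD minus Control was -0.09 (95% interval -0.33 to 0.15, limma adjusted p = 0.679). Il5ra, whose product binds IL-5, had 5.40, 5.40 and 5.23 in CBFb_KD, 5.33, 5.40 and 5.29 in Ring1b_KD, and 5.27, 5.39 and 5.37 in Control. The groups overlapped, and the 95% interval of Ring1b_KD minus Control was -0.17 to 0.16 (limma adjusted p = 0.978).

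Csf2ra, whose product binds GM-CSF, was read by 2 probe sets. Probe set 1420703_at had log2 signals of 4.46, 4.77 and 4.51 in CBFb_KD, 4.70, 4.41 and 4.42 in Ring1b_KD, and 4.33, 4.47 and 4.53 in Control, with all groups overlapping (Ring1b_KD minus Control 0.06, 95% interval -0.16 to 0.29, limma adjusted p = 0.771). Probe set 1420704_at had 6.34, 6.09 and 6.17 in CBFb_KD, 6.44, 6.45 and 6.46 in Ring1b_KD, and 6.27, 6.06 and 6.20 in Control. Here too every Ring1b_KD array lay above every Control array, with a difference of 0.27 (95% interval 0.08 to 0.46) that missed the threshold (limma adjusted p = 0.0778). In the values as deposited the difference passed it (0.36, limma adjusted p = 0.0373).

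The stretch of 250 bases upstream of the annotated start is shown for Csf2rb2, whose signal was higher in CBFb_KD, and for its alpha partner Il3ra, whose signal was not, since their products form 1 receptor. The sequences are from RefSeq (GRCm38.p6) and run 5′ to 3′ on the strand of the gene. The array files name no build. Capitals mark the match to the STAT-type motif TTCNNNGAA.
Csf2rb2, chr15:78305722-78305971, minus strand: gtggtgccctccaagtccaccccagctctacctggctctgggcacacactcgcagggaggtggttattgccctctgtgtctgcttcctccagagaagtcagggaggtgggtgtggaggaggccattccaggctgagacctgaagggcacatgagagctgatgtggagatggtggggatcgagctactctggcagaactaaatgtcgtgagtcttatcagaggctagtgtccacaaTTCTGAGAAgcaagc
Il3ra, chr14:14346245-14346494, plus strand: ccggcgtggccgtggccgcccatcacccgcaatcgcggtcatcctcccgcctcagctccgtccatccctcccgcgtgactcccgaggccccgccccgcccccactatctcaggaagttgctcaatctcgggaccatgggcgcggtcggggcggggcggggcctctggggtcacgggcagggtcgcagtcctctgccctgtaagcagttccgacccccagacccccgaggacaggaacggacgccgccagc
Of the 5 genes, 4 matched the promoter table, and Csf2rb did not. The RUNX-type motif searched was TGTGGT. For the family of GATA factors the letters searched were AGATAA alone, so other forms of its motif were not counted. Both strands were searched for each motif, and no match overlapped another here. The STAT-type motif occurred in the window of Csf2rb2, the GATA-type motif in that of Il5ra, and the RUNX-type motif in none of the 4. Among 32851 promoter windows of the same length, 7.02% held the STAT-type motif, 9.988% the GATA-type motif and 14.05% the RUNX-type motif. A match is a description of letters, not a site. The base composition differed, with 56.4% G or C in the window of Csf2rb2 and 72.4% in that of Il3ra.

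No ligand gene was called. Il3 averaged 4.80 ± 0.13 in CBFb_KD, 4.80 ± 0.09 in Ring1b_KD and 4.84 ± 0.03 in Control (log2 signal, SD, n = 3 each). Csf2, which encodes GM-CSF, averaged 6.63 in CBFb_KD, 6.57 in Ring1b_KD and 6.59 in Control. Il5 averaged 5.31 in CBFb_KD, 5.44 in Ring1b_KD and 5.41 in Control. None of these 3 genes was called in either knockdown against Control (limma adjusted p from 0.43 to 0.864). The arrays carry no detection call, so these signals cannot be told from background.

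The pathway around the receptors was read from lists of ligands, other cytokine receptors, signal transducers, negative regulators and cytokine target genes, of which 72 of 84 genes were measured. In CBFb_KD against Control, 15 rose and 2 fell, which is 23.6% of the measured genes against 15.4% of all genes called (7.78% higher and 7.6% lower). In Ring1b_KD against Control, 10 rose and 5 fell (20.8% against 12.2% of all genes, of which 5.66% were higher and 6.57% lower). Between the knockdowns, 15 were higher and 9 lower in CBFb_KD than in Ring1b_KD (33.3% against 19.4% of all genes, 10.1% higher and 9.31% lower). The medians over the 72 genes were 0.04, 0.05 and -0.01 (log2) for these comparisons, and -0.01, 0.01 and -0.02 over all genes. The split for Ring1b_KD depended on the scaling of the arrays, with 4 higher and 8 lower in the values as deposited and 3 higher and 11 lower after centring each array on its median. For CBFb_KD against Ring1b_KD these splits were 20 to 3 and 23 to 1. For CBFb_KD against Control they were 14 to 2 and 13 to 2. The splits over all genes also moved with the scaling. In Ring1b_KD against Control, 882 were higher and 1709 lower as deposited, and 352 and 2543 after median centring. For CBFb_KD against Ring1b_KD they were 2118 to 1284 and 2725 to 512, and for CBFb_KD against Control 1365 to 1292 and 1191 to 1202. The move is thus not particular to the pathway genes.

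Of 11 negative regulators of cytokine signalling, 4 rose in CBFb_KD, 0 fell and 7 were not called, against 7.78% of all genes called higher, with a median of 0.13 (log2). Cish, a STAT5-induced inhibitor of receptor signalling, had log2 signals of 11.43, 12.24 and 11.44 in CBFb_KD, 10.74, 10.64 and 10.56 in Ring1b_KD, and 10.33, 10.59 and 9.75 in Control. The CBFb_KD arrays lay above all others, array 2 was the highest of them, and Control array 3 was the lowest of its group. The receptor genes Il10rb, Il4ra and Ifngr1 and the transducer gene Stat6 had the same ranks within these groups. The ranks are thus not particular to Cish. The difference from Control was 1.48 (2.79-fold, limma adjusted p = 0.000541). Inpp5d, the lipid phosphatase SHIP, rose by 1.16 (limma adjusted p = 2.87e-05), Sh2b3, the adaptor LNK, by 0.73 (limma adjusted p = 0.0023) and Cblb, a ubiquitin ligase, by 0.48 (limma adjusted p = 0.00232). Each was higher in 3 of 3 CBFb_KD arrays than in any Control array, as 11.7% of all probe sets were, and all 4 calls were kept in all 17 alternative settings.

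In Ring1b_KD, 5 of the 11 negative regulators were called higher and 1 lower, against 12.2% of all genes, but 0 were higher and 1 lower in the values as deposited, and likewise after median centring. The total of 6 was 3 without Ring1b_KD array 1 or Control array 1, and 2 without Control array 2 or 3. The ubiquitin ligase gene Cbl differed by 0.40 (limma adjusted p = 0.0127), the STAT inhibitor genes Pias1 by 0.38 (limma adjusted p = 0.00805) and Pias3 by 0.32 (limma adjusted p = 0.0225), and Socs2 by 0.32 (limma adjusted p = 0.0261). For Pias1 another of its probe sets was called lower, and the mean of its probe sets was -0.15. Cblb fell by 0.29 (limma adjusted p = 0.0454), the opposite of its change in CBFb_KD, but this call was lost in 10 of 17 alternative settings. Cish differed by 0.42 and was not called (limma adjusted p = 0.234).

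Between the knockdowns 4 negative regulators were higher and 4 lower in CBFb_KD than in Ring1b_KD (19.4% of all genes called), against 4 higher and 1 lower in the values as deposited and 4 and 0 after median centring. Cblb was higher by 0.77 (limma adjusted p = 6.96e-05), Inpp5d by 0.78 (limma adjusted p = 0.000321), Sh2b3 by 0.66 (limma adjusted p = 0.00375) and Cish by 1.06 (limma adjusted p = 0.00413). Cbl was lower, at -0.45 (limma adjusted p = 0.00375).

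Of 8 genes that these cytokines induce in other blood cells, 3 rose in CBFb_KD, 0 fell and 5 were not called, against 7.78% of all genes called higher. Pim1, a serine/threonine kinase that promotes survival, had log2 signals of 9.95, 10.68 and 9.92 in CBFb_KD, 9.46, 9.27 and 9.28 in Ring1b_KD, and 9.08, 9.38 and 8.70 in Control. CBFb_KD lay above both other groups, which overlapped each other. Array 2 of CBFb_KD was the highest and Control array 3 the lowest, ranks that were also found in genes of other lists. The difference from Control was 1.13 (limma adjusted p = 0.00147). Bcl2l1, which encodes the survival factor BCL-XL, rose by 0.86 (limma adjusted p = 0.000121), and Mcl1, of the same family, by 0.65 (limma adjusted p = 0.00555).

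In Ring1b_KD, 0 of these 8 genes rose and 1 fell, against 12.2% of all genes called. Id1, an inhibitor of basic helix-loop-helix factors, fell by 0.998 (limma adjusted p = 0.000483), and Pim1 differed by 0.28 without a call (limma adjusted p = 0.383). Set against Ring1b_KD directly, 5 of 8 were higher in CBFb_KD and 0 lower, against 10.1% of all genes called higher (3 without CBFb_KD array 3, and 3 without Ring1b_KD array 3). They were Bcl2l1 (0.79, limma adjusted p = 0.000149), Id1 (0.85, limma adjusted p = 0.000586), Pim1 (0.85, limma adjusted p = 0.00807), Mcl1 (0.48, limma adjusted p = 0.0244) and the cyclin gene Ccnd2 (0.31, limma adjusted p = 0.0213).

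**Figure D2:**
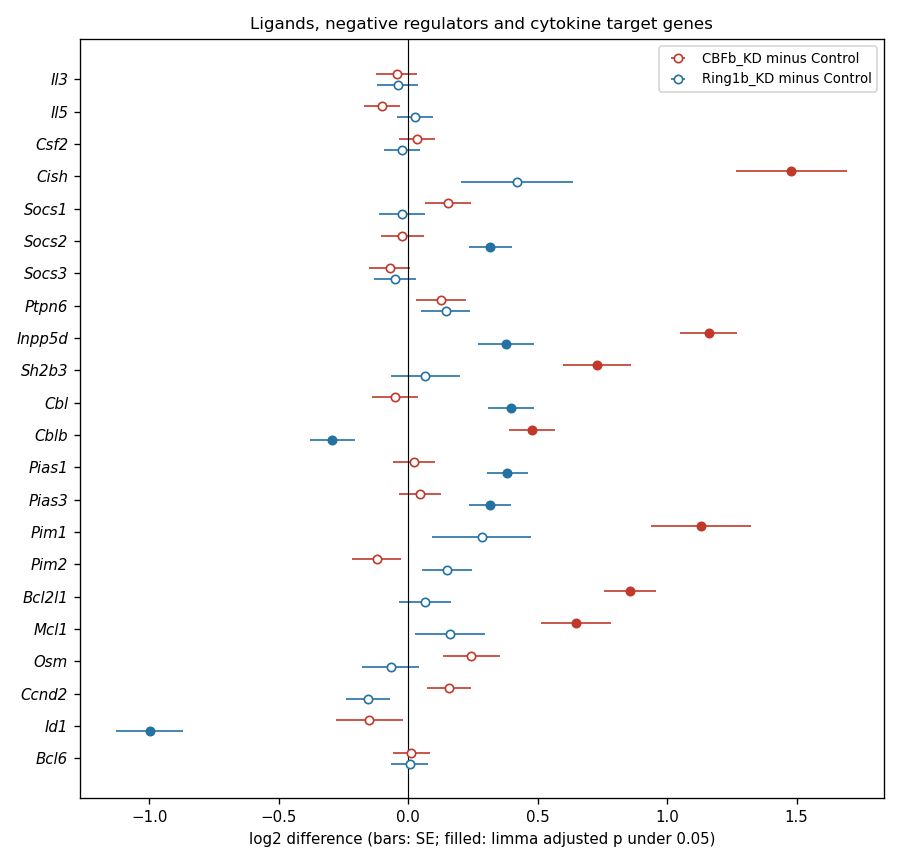
Log2 difference from Control of the ligand, negative regulator and cytokine target genes, with bars for the SE and filled points for limma adjusted p under 0.05. The filled CBFb_KD points of Cish, Inpp5d and Pim1 lie beyond 1, the 3 ligands lie between -0.10 and 0.03, and Id1 lies at -0.998 in Ring1b_KD.

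Of 23 signal transducers measured, 5 rose and 1 fell in CBFb_KD, which is 26.1% against 15.4% of all genes, with a median of 0.07 (log2). The count was 1 and 1 without CBFb_KD array 3 and likewise without Control array 3, and 2 and 1 without CBFb_KD array 2. Jak2, the kinase bound to the beta chain, differed by 0.27 (limma adjusted p = 0.0371), a call lost in 8 of 17 alternative settings. Stat5a differed by -0.33 (limma adjusted p = 0.0509) and Stat5b by 0.10 (limma adjusted p = 0.578), and neither was called. In 8 of 17 alternative settings, however, Stat5a was called lower. Stat6, Stat2 and Stat3 rose by 0.46, 0.39 and 0.25 (limma adjusted p = 0.0155, 0.032 and 0.0183), with each call lost in 4 of 17 alternatives, and Jak1, Jak3, Tyk2 and Stat4 were not called. Sos1, the exchange factor that activates Ras, fell by 0.93 (limma adjusted p = 0.000192), and Pik3r1, the regulatory subunit of phosphoinositide 3-kinase, rose by 0.43 (limma adjusted p = 0.00806).

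In Ring1b_KD, 2 of the 23 transducers rose and 1 fell (13.04% against 12.2% of all genes), and 0 and 1 without Control array 2, against 1 and 4 in the values as deposited and 1 and 7 after median centring. Pik3cb, a catalytic subunit of phosphoinositide 3-kinase, fell by 0.80 (limma adjusted p = 0.00805). Stat2 rose by 0.49 (limma adjusted p = 0.0142) and the Ras gene Nras by 0.37 (limma adjusted p = 0.0349). No JAK gene was called, with differences of -0.18 to 0.27. Between the knockdowns, Stat5a was lower in CBFb_KD, by -0.37 (limma adjusted p = 0.0262, lost in 6 of 17 alternatives), and Sos1 was lower, by -0.62 (limma adjusted p = 0.0024).

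**Figure D3:**
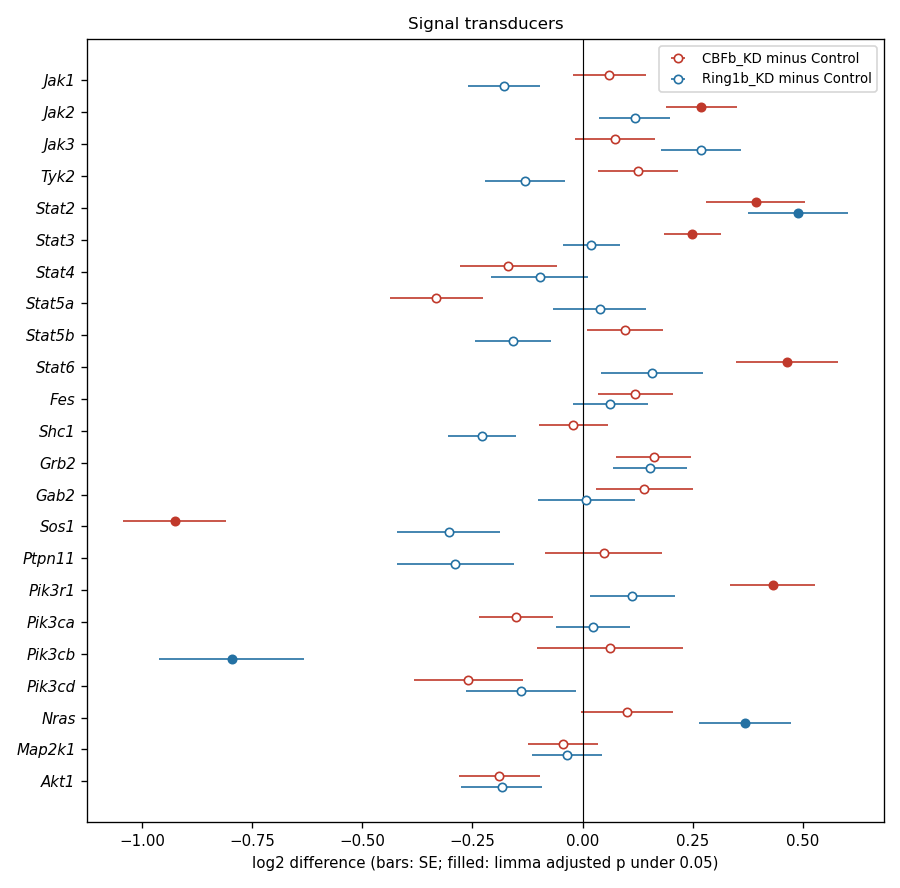
Log2 difference from Control of the 23 signal transducers, with bars for the SE and filled points for limma adjusted p under 0.05. Sos1 at -0.93 in CBFb_KD and Pik3cb at -0.80 in Ring1b_KD stand apart, and the JAK and STAT genes lie between -0.33 and 0.49.

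Among 27 other cytokine receptor genes, 3 rose and 1 fell in CBFb_KD, which is 14.8% against 15.4% of all genes, near the background. Il10rb, a shared chain of the IL-10 receptor family, rose by 0.83 (limma adjusted p = 0.000861), the erythropoietin receptor gene Epor by 0.55 (limma adjusted p = 0.00164) and Il4ra by 0.33 (limma adjusted p = 0.016). Il27ra fell by 0.39 (limma adjusted p = 0.00922). None of the 3 that rose reached the 2.76 of Csf2rb2, a member of a family chosen on the rise of Csf2rb in this comparison.

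In Ring1b_KD, 3 of these receptor genes rose and 2 fell (18.5% against 12.2%). The total of 5 was 1 without Control array 3, 2 without Control array 1, Control array 2, Ring1b_KD array 2 or Ring1b_KD array 3, and 3 without CBFb_KD array 3. Ifngr1, the ligand-binding chain of the interferon gamma receptor, had log2 signals of 10.69, 10.64 and 10.64 in Ring1b_KD, against 9.48, 10.01 and 9.09 in Control. It rose by 1.13 (limma adjusted p = 0.0081), a difference of the size of that of Csf2rb. Il4ra and Il6ra rose by 0.38 and 0.34 (limma adjusted p = 0.012 and 0.0313), and Il27ra and Ifnar2 fell by 0.32 and 0.31 (limma adjusted p = 0.0337 and 0.0403). Of the Ring1b_KD calls named from the pathway lists, those of Id1, Ifngr1 and Pik3cb were kept in all 17 alternative settings. Between the knockdowns, 3 of the 27 were higher and 3 lower in CBFb_KD (22.2% against 19.4% of all genes). These counts were 3 and 1 in the values as deposited, 3 and 0 after median centring, and 2 and 0 without Ring1b_KD array 3. They were 2 and 1 without CBFb_KD array 2, CBFb_KD array 3 or Ring1b_KD array 2. Among the 6 were Il10rb (0.72, limma adjusted p = 0.00199), Epor (0.44, limma adjusted p = 0.0066) and Ifngr1 (-0.85, limma adjusted p = 0.0237), the last of these calls being lost in 8 of 17 alternatives.

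Markers of cell types that use these receptors were read beside the members. Of 16 megakaryocyte markers, 7 rose in CBFb_KD, 0 fell and 9 were not called, against 7.78% of all genes called higher, and their mean log2 signal was 9.11 to 9.16 in CBFb_KD, 8.03 to 8.54 in Ring1b_KD and 8.25 to 8.52 in Control. Treml1 and Gp5, platelet membrane proteins, rose by 1.82 and 1.68 (limma adjusted p = 6.47e-07 and 1.2e-06), and Gp9 rose by 2.32 (limma adjusted p = 5.23e-05). In Ring1b_KD, 0 of 16 rose and 1, Vwf, fell (6.25% against 12.2% of all genes). The Vwf call was lost in 4 of 16 alternative settings. With dim features filtered out, 1 marker rose and 0 fell. The part of these markers in the beta chain values was not tested, and a change in the share of maturing cells and a change of RNA per cell cannot be told apart in bulk RNA.

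Of 15 mast cell, basophil and eosinophil markers, 1 rose and 3 fell in CBFb_KD (26.7% against 15.4% of all genes), and 2 rose and 1 fell in Ring1b_KD (20% against 12.2%). Their mean log2 signal was 6.90 to 6.97 in CBFb_KD, 7.005 to 7.18 in Ring1b_KD and 6.88 to 7.11 in Control. Hdc, which makes histamine, was higher in both knockdowns (1.11 in CBFb_KD and 0.99 in Ring1b_KD, limma adjusted p = 0.00814 and 0.0217). Its Ring1b_KD call was lost in 6 of 17 alternative settings. Ms4a2, a chain of the IgE receptor, fell in both (-1.92 and -1.49, limma adjusted p = 0.000144 and 0.00154). The markers Kit and Mcpt1 fell in CBFb_KD (-0.39 each, limma adjusted p = 0.0337 and 0.0368). These 2 calls were lost in 4 of 17 and 6 of 16 alternatives. The IgE receptor gene Fcer1a rose by 1.61 in Ring1b_KD (limma adjusted p = 0.00447). Of 20 granulocyte and monocyte markers, 1 rose (Prtn3) and 1 fell (Ctsg) in CBFb_KD (10% against 15.4% of all genes), and 0 rose and 1 fell (Ctsg) in Ring1b_KD (5% against 12.2%). The Ctsg call was lost in 8 of 17 alternatives in CBFb_KD and in 3 of 17 in Ring1b_KD. That of Prtn3 (1.42, limma adjusted p = 3.76e-06) was kept in all 17. The mean signal of these 20 was 6.78 to 6.91 in CBFb_KD, 6.69 to 6.85 in Ring1b_KD and 6.75 to 6.86 in Control. Of 11 lymphocyte markers, 0 were called in CBFb_KD by limma, and 2 rose in Ring1b_KD (Zap70 and Cd8a, 18.2% against 12.2% of all genes), with mean signals of 6.84 to 6.99 in CBFb_KD, 6.96 to 7.03 in Ring1b_KD and 6.81 to 6.91 in Control. The call of Zap70 was lost in 5 of 17 alternatives and that of Cd8a in 8 of 17.

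The genes beside Csf2rb on chromosome 15 were read for shared change. Of 20 other annotated genes with starts within 250 kb, 12 were measured, and 4 rose and 0 fell in CBFb_KD, against 7.78% of all genes called higher. C1qtnf6, a secreted C1q family protein, rose by 0.88 (limma adjusted p = 4.07e-05), Mpst and Tst, sulfur transferases, by 0.72 and 0.36 (limma adjusted p = 8.85e-05 and 0.013), and the small GTPase gene Rac2 by 0.74 (limma adjusted p = 0.00268). The 12 neighbours lay between -0.20 and 0.88, all under the 2.76 of Csf2rb2, which is next to Csf2rb. The family was chosen on the CBFb_KD rise of Csf2rb, so this order is a description. In Ring1b_KD, 2 of the 12 rose against 5.66% of all genes, Rac2 by 0.60 (limma adjusted p = 0.0146) and C1qtnf6 by 0.33 (limma adjusted p = 0.0287), and 0 fell. The C1qtnf6 call was lost in 7 of 17 alternative settings and the Rac2 call in 3. Il2rb, another cytokine receptor gene of the region, differed by -0.04 in CBFb_KD.

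**Figure D4:**
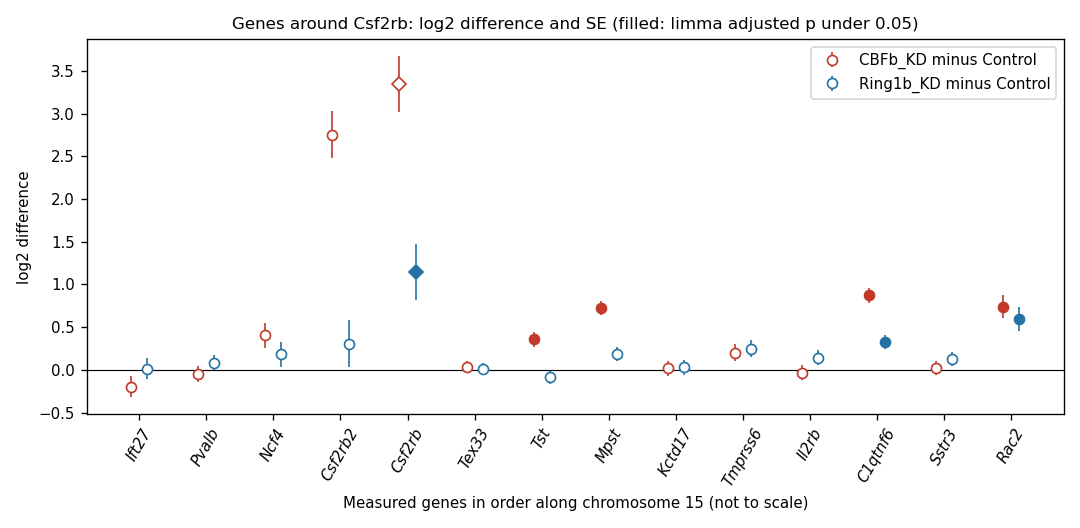
Log2 difference from Control, with SE, of the measured genes around Csf2rb in chromosomal order, not to scale, with filled points for limma adjusted p under 0.05. Diamonds show Csf2rb (probe set 1455660_at), and the CBFb_KD points of Csf2rb and Csf2rb2 are open because they were not tested. Both stand above all 12 neighbours, which lie between -0.20 and 0.88 in CBFb_KD, an order given as a description since Csf2rb was chosen for its rise.

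The genes whose pattern over the 9 arrays was most like that of Csf2rb were found by the root mean square difference of log2 signals, each centred on the mean of its gene. Over 18192 genes the median of this measure was 1.47. The nearest was F13a1, the A chain of coagulation factor XIII, at 0.362. Ifit1, an interferon-induced gene, followed at 0.517, Cd24a, a surface sialoglycoprotein, at 0.526, Csf2rb2 at 0.542, and Cpeb4, a regulator of mRNA polyadenylation, at 0.573. These genes were chosen for their likeness, so their values are a description. F13a1 averaged 9.51 ± 0.32 in CBFb_KD, 6.89 ± 0.28 in Ring1b_KD and 6.41 ± 0.47 in Control (log2 signal, SD, n = 3 each). The measure includes the CBFb_KD and Control values that chose the family. Cpeb4 differed most from Control in Ring1b_KD among the 5, by 0.89, against 1.15 for Csf2rb.

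**Figure D5:**
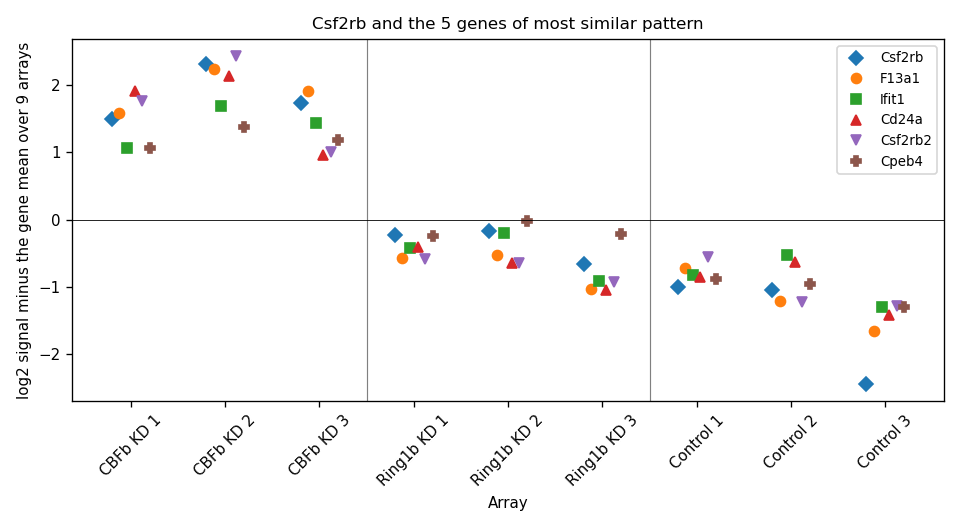
Log2 signal minus the mean of each gene over 9 arrays, for Csf2rb (probe set 1455660_at) and the 5 genes of most similar pattern, by array. All 6 genes are highest in the 3 CBFb_KD arrays, and Csf2rb is lowest in Control array 3.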

How the data were processed

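One array of 1 colour and 45101 probe sets was made per sample of L8057 cells, 9 in all. cDNA made from total RNA with an oligo-dT primer was transcribed into biotinylated RNA, per the labels' protocols. The range of the deposited values is that of log2 signals. The authors' software, probe summary and normalization were not given in the sources used here. Oligo-dT priming at the poly(A) tail limits each value to the probed part of a transcript, and summarised probes compress differences near the floor.

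Array medians spanned 0.137, above the limit of 0.1 set for keeping the table, so values were quantile normalized with limma 3.58.1 (R 4.3.3), with the deposited scale as an alternative. The 64 control probe sets were left out. By the platform annotation 34945 probe sets have 1 symbol and 932 have several; the 9160 it does not list are unnamed here. Entrez identifiers matched the GRCm38.p6 gene table for 34741, with 0 symbols changed.

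limma (lmFit, eBayes with a variance trend) was fitted over 45037 probe sets for the members, and over 18193 genes, each by its single-symbol probe set of highest mean, for the lists. All 9 arrays shared 1 estimate of the spread, tests were two-sided and calls were made at a Benjamini-Hochberg adjusted p under 0.05. The fit was tested on simulated data. In each list up to 4 called genes were named by adjusted p, plus those against the majority where 3 or fewer, with the ligand, JAK and STAT genes. Of the genes in the lists, 12 of the pathway and 7 markers were not analysed here. The members and lists were chosen with earlier results of these data known.

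Same-numbered CBFb_KD and Control arrays deviated together from their group means (correlations 0.203, 0.377 and 0.200). The highest correlations with a Control array of another number were 0.147, -0.052 and -0.001. The numbers may thus pair these arrays, by the data and not by the labels. The main fit left the replicate number out, so its p-values are unpaired, and a fit with the number as a block was an alternative. No source gives the day or culture of an array, so a batch could not be tested. The p-values reflect the scatter among arrays, which may be partly technical. Alternatives changed the scaling, the variance model, the filter on dim features, the choice of probe set, the arrays fitted, and each array left out.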

Additional observations from a re-analysis of the deposited data

How the results depend on the processing

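The count of member probe sets called in Ring1b_KD against Control was 2. It was 1 after median centring, with robust variance, without a variance trend and with only the 2 groups compared, and 1 to 3 when each array was left out. With 1 probe set a gene it was 1 of 5, as 1421326_at was left out and 1455660_at was called (limma adjusted p = 0.0334). The call of Csf2rb probe set 1421326_at was kept in 16 of 16 alternatives (limma adjusted p from 0.00286 to 0.0476), that of 1455660_at was lost in 11 of 17 (limma adjusted p from 0.0103 to 0.151), and Csf2rb2 was called in 0 of 17. In CBFb_KD against Control 3 member probe sets differed by at least 1 (log2) in every run that left out an array. Pathway genes called in Ring1b_KD against Control were 15, 9 with the mean of probe sets, and 6 to 15 when each array was left out. They were 6 without Control array 2 or 3, 8 without Control array 1 and 9 without Ring1b_KD array 3. In CBFb_KD against Ring1b_KD they were 24, and 14 to 26 with an array left out (14 without Ring1b_KD array 3). In CBFb_KD against Control they were 17, and 12 to 18. Pias1 changed sign with the mean of its probe sets, to -0.15 in Ring1b_KD against Control (limma adjusted p = 0.25) and 0.17 in CBFb_KD against Ring1b_KD (limma adjusted p = 0.161), as its probe sets disagree. Same-number correlations of Ring1b_KD were -0.068, 0.044 and 0.153 with Control, and 0.045, 0.104 and -0.038 with CBFb_KD, so a pairing was less clear there. With the replicate block the counts were 2 and 3 for the member probe sets in Ring1b_KD and CBFb_KD, and 18, 15 and 28 for the pathway genes (CBFb_KD, Ring1b_KD and the knockdowns against each other), none moved by over 1.5 times. The median over all genes moved by less than 0.1 between scalings, from 0.01 to 0.03 and -0.05 in Ring1b_KD against Control. The filter on dim features left 4 of the 7 member probe sets. Where not stated, the cause of a change was not tested.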
